A study of Homo sapiens with 6 samples.

Results

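The Krüppel-like factors (KLF) are a family of zinc finger transcription factors, and 10 of them, KLF2, KLF3, KLF4, KLF5, KLF6, KLF7, KLF9, KLF10, KLF11 and KLF13, were followed by gene symbol in RNA sequencing of C4-2, a human prostate cancer line. All 10 were among the 26819 genes listed and all 10 were among the 14833 genes tested, those at or above 1 TPM in 3 or more libraries. TPM is a read number divided by transcript length and scaled to a fixed library total, so levels can be compared between genes. Both groups consist of C4-2 cells with the genotype Tet-O-YAP5SA, a doxycycline-switched transgene for a form of the coactivator YAP1 that escapes inhibition by the LATS kinases. The control group (Ctrl, 3 libraries) received no doxycycline, and the treated group (Dox, 3 libraries) received doxycycline, for 24 hours. A dose of 0.2 mg/ml is labelled, unusually high for a doxycycline switch, and its unit could not be checked. The labels do not say whether the line is a clone or a pool, nor whether each library is a culture of its own, so p-values here reflect only how these libraries vary, and that variation may be technical. Cells without the transgene that received doxycycline are not part of the design, so an effect of the drug and an effect of the transgene cannot be told apart.

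Reads recovered from the TPM values numbered 24914226 to 29207519 per library. YAP1, the gene of the transgene, stood at 52.7, 57.9 and 59.9 TPM in the Ctrl libraries and at 263, 277 and 268 TPM in the Dox libraries, so all Dox libraries were above all Ctrl libraries. All 10 luminal prostate markers examined were detected, with summed levels of 6586 to 6687 TPM in Ctrl and 5523 to 5624 TPM in Dox. Of the 3 basal markers, KRT5 and TP63 did not exceed 0.0276 TPM in any library, while KRT14 was at 1.17 to 1.75 TPM, so the summed basal level was 1.36 to 1.71 TPM in Ctrl and 1.17 to 1.76 TPM in Dox. The endothelial and immune sums rest on 2 of 3 markers each. The summed endothelial markers, almost all VWF, were at 1.17 to 1.41 TPM in Ctrl and 3.97 to 4.57 TPM in Dox. The immune sum was almost all CD68, at 19.0 to 20.8 TPM in Ctrl and 9.37 to 10.3 TPM in Dox. The T cell marker CD3E did not exceed 0.0470 TPM in any library, so the immune sum describes CD68 alone. The part of those shifts in the KLF results was not tested. In bulk RNA, fewer cells that express a gene and less of its RNA per cell cannot be told apart.

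KLF proteins bind GC-rich and CACCC-type promoter elements through 3 zinc fingers near their carboxyl end, a domain shared with the SP factors. The rest of the protein sets what each factor does: KLF3 recruits the corepressor CtBP, KLF2, KLF4, KLF5, KLF6 and KLF7 mainly activate transcription and can recruit acetyltransferases, and KLF9, KLF10, KLF11 and KLF13 bind the corepressor SIN3A. In epithelia KLF4 is known for differentiation and growth arrest and KLF5 for proliferation of basal and progenitor cells, and KLF5 and KLF6 have long been studied in prostate cancer.

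The finger region was read from the longest open reading frame of each gene in GENCODE 29 transcripts, from the first cysteine of the first finger to the last histidine of the final one, and was 243 bases long in all 10. Identity over these bases ranged from 55.1% (KLF3 and KLF9) to 83.5% (KLF6 and KLF7) over the 45 pairs, with a median of 65.0%. The closest relatives after KLF6 and KLF7 were KLF2 and KLF4 (78.6%), KLF10 and KLF11 (78.2%) and KLF9 and KLF13 (75.3%). KLF6 and KLF7 are shown because they are the closest pair and moved in opposite directions, and KLF4 and KLF5 because they too moved in opposite directions. Capitals mark bases that differ from the other member of the pair, 40 of 243 in the first and 73 of 243 in the second pair.
KLF6: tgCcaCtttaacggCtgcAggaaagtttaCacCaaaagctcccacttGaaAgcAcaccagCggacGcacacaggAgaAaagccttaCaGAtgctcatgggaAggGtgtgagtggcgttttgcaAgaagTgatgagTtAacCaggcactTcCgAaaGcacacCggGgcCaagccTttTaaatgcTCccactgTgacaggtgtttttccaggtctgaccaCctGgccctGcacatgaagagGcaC
KLF7: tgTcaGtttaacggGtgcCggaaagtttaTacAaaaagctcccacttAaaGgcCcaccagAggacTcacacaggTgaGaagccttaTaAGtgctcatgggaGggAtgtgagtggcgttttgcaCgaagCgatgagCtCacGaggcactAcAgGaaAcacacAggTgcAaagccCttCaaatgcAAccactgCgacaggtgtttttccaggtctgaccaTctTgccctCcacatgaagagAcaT
KLF4: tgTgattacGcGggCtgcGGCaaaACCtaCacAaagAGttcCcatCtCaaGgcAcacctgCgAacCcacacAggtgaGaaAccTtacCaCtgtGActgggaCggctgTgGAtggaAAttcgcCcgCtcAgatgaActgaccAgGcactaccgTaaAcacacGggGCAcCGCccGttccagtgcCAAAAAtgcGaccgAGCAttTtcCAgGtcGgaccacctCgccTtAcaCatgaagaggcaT
KLF5: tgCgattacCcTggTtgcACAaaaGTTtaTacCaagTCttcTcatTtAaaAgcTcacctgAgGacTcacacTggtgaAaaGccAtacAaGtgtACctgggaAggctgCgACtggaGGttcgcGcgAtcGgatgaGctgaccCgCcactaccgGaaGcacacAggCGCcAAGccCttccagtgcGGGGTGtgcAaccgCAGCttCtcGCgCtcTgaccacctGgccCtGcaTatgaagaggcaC
The longest identical stretch between KLF6 and KLF7 was 26 bases, also over their whole reading frames, and the longest between KLF4 and KLF5 was 11 bases. These were the longest runs that a read could share exactly in the coding sequence of these pairs. The sources used here do not give the read length or the treatment of reads with several matches.

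Between Dox and Ctrl, 3 of the 10 genes rose (KLF5, KLF7 and KLF3), 4 fell (KLF6, KLF4, KLF10 and KLF13), and KLF2, KLF9 and KLF11 did not pass the test (limma on log2(TPM + 1), Benjamini-Hochberg adjusted p under 0.05 over all tested genes). Over all tested genes 53.7% passed, 35.9% upwards and 17.8% downwards, so 7 of 10 is read against a background in which most genes passed. The median log2 fold change was -0.13 for the 10 genes and 0.10 for all tested genes. For 7 of the 10 Ctrl and Dox levels had no overlap, against 61.9% of all tested genes. A passing change of at least 1 on the log2 scale was seen in 1 of the 10, KLF5, against 4.89% of all tested genes. The log2 fold change of KLF6, at -0.93, reached that size too with median-ratio rescaling (-1.03), quantile normalization (-1.10), voom (-1.05) and the length trend removed (-1.07). The share of all tested genes that reached it under those choices was not taken, and 4.89% belongs to the fit as reported. Scaling moved this split: with median-ratio rescaling, and likewise with quantile normalization, 2 rose and 5 fell, because KLF3 no longer passed and KLF11 did. The background moved too. Of the 14833 tested genes, 3964 rose and 3948 fell with median-ratio rescaling. With quantile normalization 3536 rose and 4348 fell. Quantile normalization moved the median of all tested genes by -0.13, so small changes are to be read against the median. Measured from the median of all tested genes, the changes on the log2 scale were 2.97 for KLF5, 0.53 for KLF7, 0.04 for KLF3, 0.04 for KLF9, -0.21 for KLF11, -0.24 for KLF2, -0.33 for KLF13, -0.73 for KLF10, -0.77 for KLF4 and -1.03 for KLF6.

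**Figure D1:**
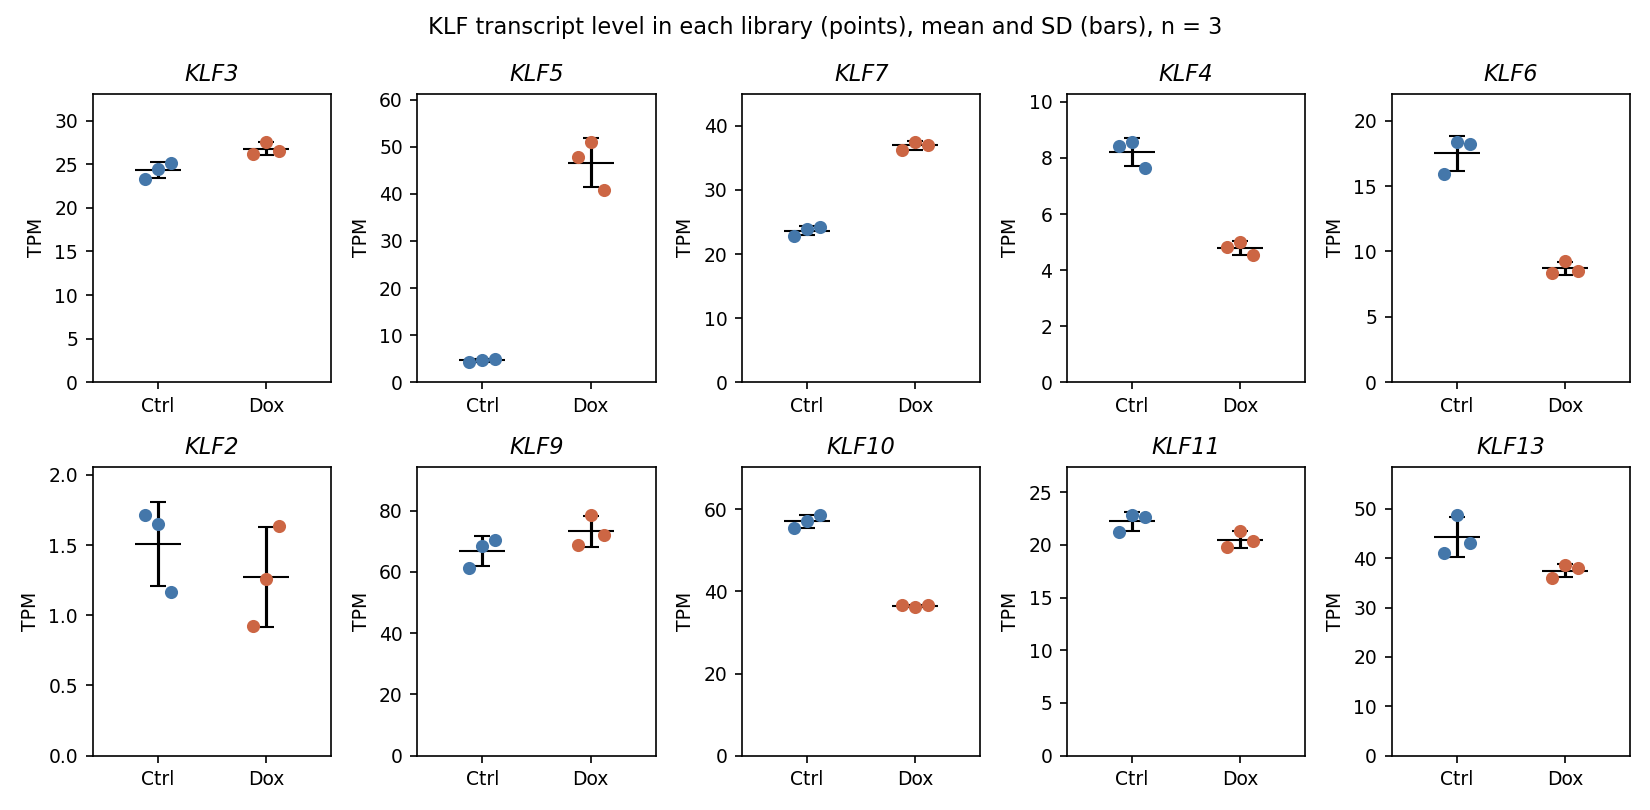
Transcript level of each of the 10 KLF genes in TPM (vertical axes start at 0 and differ between panels) in the 3 Ctrl and 3 Dox libraries; points are libraries, the horizontal line is the mean and the vertical bar the SD. KLF5 goes from under 5 TPM to over 40 TPM, KLF7 and KLF3 are higher in every Dox library, KLF6, KLF4, KLF10 and KLF13 are lower in every Dox library, and the groups overlap for KLF2, KLF9 and KLF11.

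Within the activator group the members diverged most. KLF5 (ENSG00000102554.9) was measured at 4.30, 4.79 and 4.87 TPM in the Ctrl libraries and at 47.8, 51.1 and 40.9 TPM in the Dox libraries. The lowest Dox library, Dox 3, lay far above the highest Ctrl library. Mean levels had a ratio of 10.0, a log2 fold change of 3.07 ± 0.09 (SE; limma, adjusted p = 1.7e-07) and the 41st largest rise among the 14833 genes. The values rest on 468 reads over the Ctrl and 4438 reads over the Dox libraries.

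KLF7, a broadly expressed factor best known from neurons, was at 22.9, 23.8 and 24.2 TPM in Ctrl and at 36.2, 37.5 and 37.1 TPM in Dox. All 3 Dox libraries were above all Ctrl libraries, with little spread inside either group. The mean rose 1.56-fold (log2 fold change 0.62 ± 0.04, limma adjusted p = 1.5e-05).

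KLF6, an immediate early factor that acts as a growth suppressor in prostate cells and is the nearest relative of KLF7, went the other way. Its levels were 15.95, 18.40 and 18.18 TPM in Ctrl and 8.355, 9.244 and 8.499 TPM in Dox. Every Dox library was below every Ctrl library, and the mean was 2.01-fold lower (log2 fold change -0.93 ± 0.07, limma adjusted p = 3.1e-05), the 168th largest fall of all tested genes. KLF4 was at 8.41, 8.58 and 7.65 TPM in Ctrl and at 4.83, 5.02 and 4.53 TPM in Dox. It too was lower in all 3 Dox libraries, 1.71-fold in the mean (log2 fold change -0.67 ± 0.07, limma adjusted p = 0.0002). KLF2, which holds endothelial cells and lymphocytes in a quiescent state, was the least abundant member, at 1.71, 1.65 and 1.17 TPM in Ctrl and 0.927, 1.26 and 1.63 TPM in Dox. The groups overlapped and KLF2 did not pass (log2 fold change -0.15, 95% confidence interval -0.51 to 0.22, limma adjusted p = 0.46). Only 14 to 31 reads per library covered it, so a change inside that interval was not detectable at this depth. The interval is on log2(TPM + 1), which understates changes of a gene this low, so its bounds are not bounds on the fold. The SE was 0.16 on this scale, 0.26 with a pseudocount of 0.1 and 0.28 with voom on recovered reads.

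Of the 4 SIN3A-binding members, KLF10 and KLF13 fell and the other two did not pass. KLF10, the TGF-beta inducible early gene 1, was at 55.6, 57.1 and 58.6 TPM in Ctrl and at 36.6, 36.2 and 36.7 TPM in Dox. The Dox libraries were nearly equal to each other and all below the Ctrl libraries. The mean was 1.56-fold lower (log2 fold change -0.63 ± 0.04, limma adjusted p = 6.8e-06). KLF11, the TGF-beta inducible early gene 2 and closest relative of KLF10, was at 21.2, 22.8 and 22.7 TPM in Ctrl and at 19.8, 21.4 and 20.4 TPM in Dox. Its groups overlapped at Ctrl 1 and Dox 2, and it did not pass (log2 fold change -0.11, 95% confidence interval -0.23 to 0.01, limma adjusted p = 0.11). It passed as lower with median-ratio rescaling (adjusted p = 0.0037), quantile normalization (0.0015), voom on recovered reads (0.023) and removal of the length trend (0.0035).

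KLF13, a ubiquitous factor first described as a regulator of the chemokine gene CCL5 in T cells, was at 41.0, 48.7 and 43.1 TPM in Ctrl and at 35.9, 38.5 and 38.0 TPM in Dox. The Dox libraries lay below the Ctrl libraries, 1.18-fold in the mean, with Ctrl 2 standing highest (log2 fold change -0.23 ± 0.07, limma adjusted p = 0.02). The call was lost without Dox replicate 1 (adjusted p = 0.063). KLF9, a factor induced by glucocorticoid and thyroid hormones, was the most abundant member in both groups. It was at 61.1, 68.4 and 70.4 TPM in Ctrl and at 68.8, 78.5 and 72.2 TPM in Dox, with overlap between the groups. It did not pass (log2 fold change 0.13, 95% confidence interval -0.02 to 0.29, limma adjusted p = 0.13).

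KLF3, the CtBP-dependent repressor among the 10, was at 23.4, 24.5 and 25.2 TPM in Ctrl and at 26.2, 27.6 and 26.6 TPM in Dox. The groups did not overlap, but the mean rose by only 10.1% (log2 fold change 0.13 ± 0.05, limma adjusted p = 0.044), close to the median of all tested genes. The call passed in 3 of 16 alternatives, as the plot of all alternatives shows. It was lost without Ctrl replicate 1 (adjusted p = 0.13), 2 (0.072) or 3 (0.059), without Dox replicate 1 (0.063), 2 (0.14) or 3 (0.079), and with median-ratio rescaling (0.59), and the value was -0.0025 with quantile normalization. An antisense gene, KLF3-AS1, overlaps KLF3 in GENCODE 29 and was at 0.0247 TPM in Ctrl and 0.0648 TPM in Dox in the mean. KLF11 also has an antisense partner there (AC104794.4, not analysed here). The libraries keep strand, but the sources used here do not say how strand was treated in counting, so reads of such pairs cannot be assigned with certainty.

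**Figure D2:**
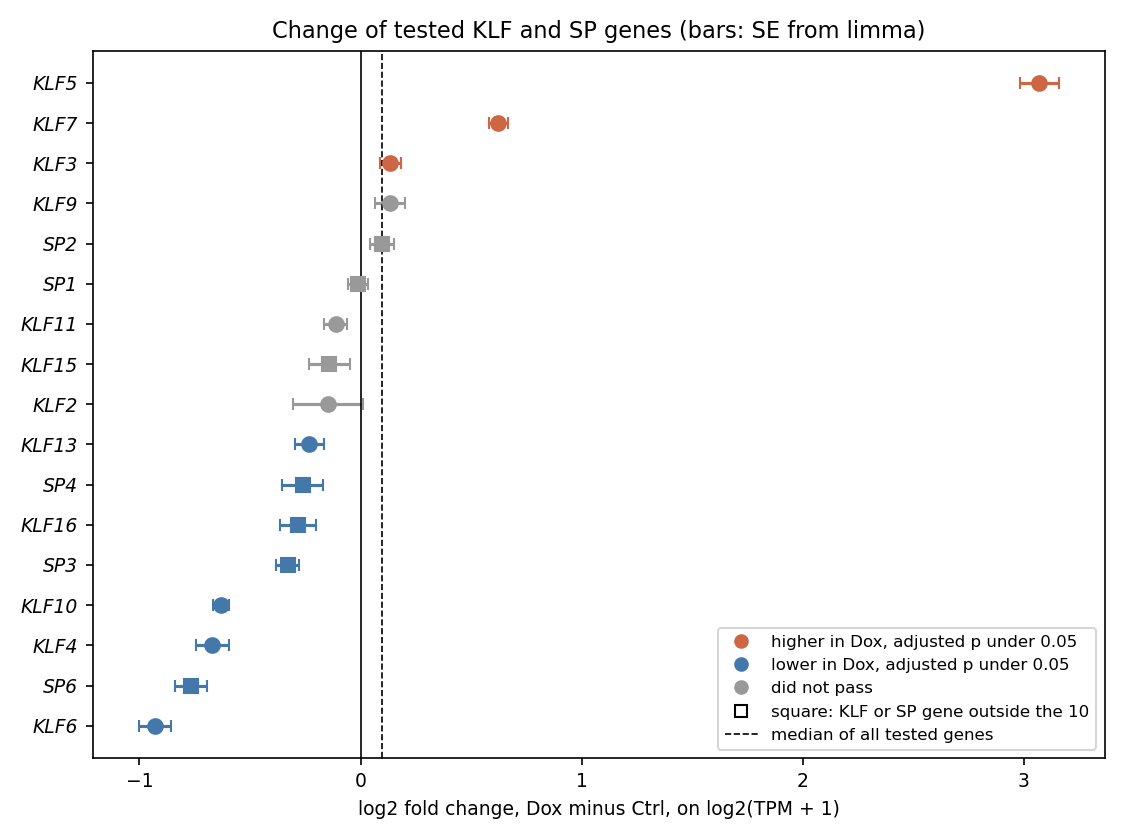
Log2 fold change (Dox minus Ctrl, on log2(TPM + 1)) of the 17 tested KLF and SP genes, with SE bars from limma over 3 and 3 libraries; circles are the 10 KLF genes, squares other KLF or SP genes. KLF5 stands at 3.07, far from the next gene, KLF7, at 0.62, and the lower end is formed by KLF6 (-0.93), SP6 (-0.77), KLF4 (-0.67) and KLF10 (-0.63).

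**Figure D3:**
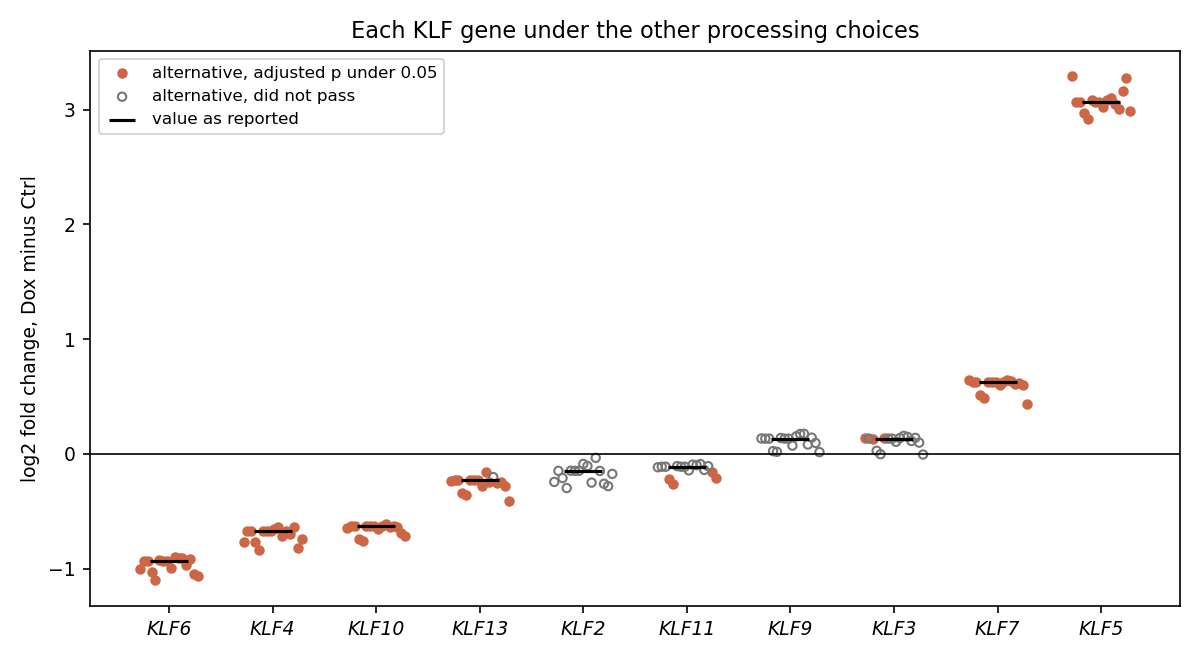
Log2 fold change (Dox minus Ctrl, vertical axis) of each KLF gene as reported (line) and under each alternative processing choice (filled points passed at adjusted p under 0.05, open points did not). KLF6, KLF4, KLF10, KLF7 and KLF5 are filled throughout, KLF13 has 1 open point, KLF11 has 4 filled points, and the KLF3 points reach down to -0.0051.

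The order of levels within the family shifted with KLF5. In Ctrl, from high to low, it was KLF9, KLF10, KLF13, KLF3, KLF7, KLF11, KLF6, KLF4, KLF5 and KLF2, and only the neighbours KLF3 and KLF7 overlapped between libraries. In Dox it was KLF9, KLF5, KLF13, KLF7, KLF10, KLF3, KLF11, KLF6, KLF4 and KLF2. There KLF13 (37.5 TPM) overlapped KLF7 (37.0 TPM), and KLF7 overlapped KLF10 (36.5 TPM). KLF5 moved from 9th to 2nd, 1.24-fold above KLF13. Among all tested genes, 27.9% had a lower Ctrl level than KLF5 and 74.95% a lower Dox level.

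As a share of the summed TPM of the 10 genes, KLF5 made up 1.68%, 1.72% and 1.76% in the Ctrl libraries and 16.7%, 16.7% and 14.3% in the Dox libraries. KLF10 went from 21.2% ± 0.634 to 12.5% ± 0.575 (SD, n = 3), KLF6 from 6.48% ± 0.202 to 2.97% ± 0.0457, and KLF4 from 3.05% ± 0.264 to 1.64% ± 0.0552. KLF9 kept about the same share, 24.7% ± 0.804 and 25.0% ± 0.782. The SIN3A-binding members together held 70.4% ± 0.352 of the pool in Ctrl and 57.3% ± 0.999 in Dox, and the activator members 20.6% ± 0.258 and 33.6% ± 1.08. KLF5 carries much of this shift and is no measure of the whole activator group, in which KLF4 and KLF6 fell. The activator sum was 55.5 ± 2.08 TPM in Ctrl and 98.3 ± 5.75 TPM in Dox, of which KLF5 made 4.65 and 46.6 TPM. The SIN3A-binding sum was 190 ± 9.93 TPM in Ctrl and 168 ± 6.73 TPM in Dox. The pool itself was 270 ± 12.8 TPM in Ctrl and 292.8 ± 11.8 TPM in Dox, and without KLF5 it was 265 ± 12.5 and 246 ± 8.78 TPM. These shares are a description without a test. As ratios within a library they do not move with a constant factor per library, such as median-ratio rescaling, but they do move with quantile normalization.

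**Figure D4:**
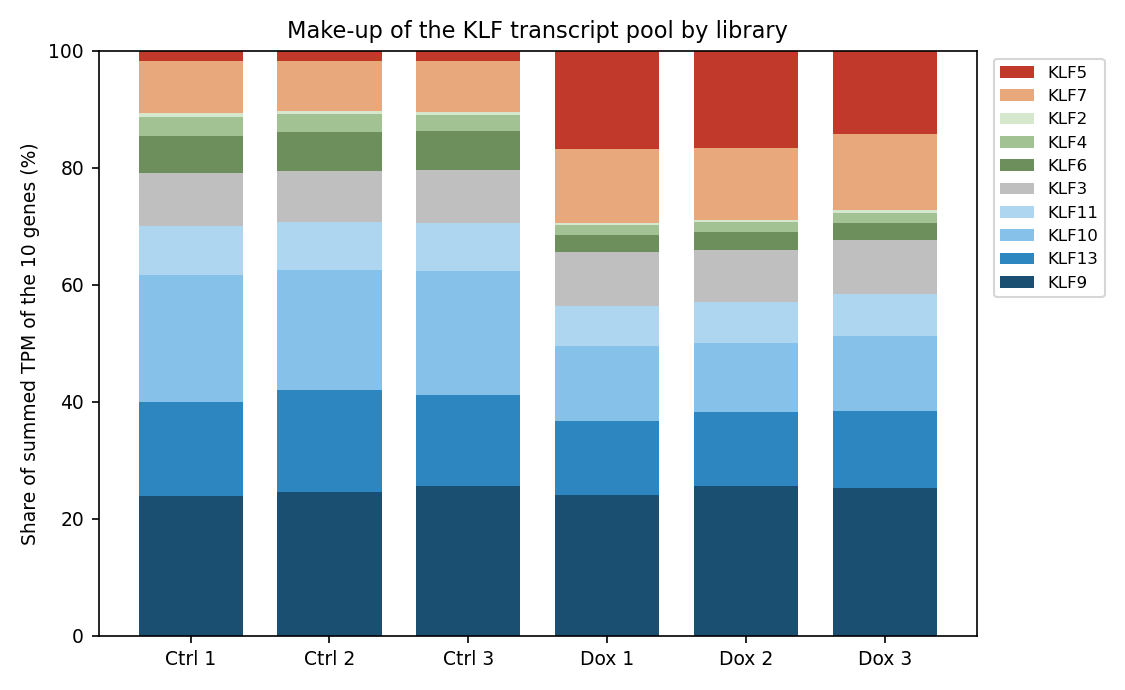
Share of each gene in the summed TPM of the 10 KLF genes, in percent, for each of the 6 libraries (stacked bars, 100% in all). The KLF5 segment is between 1.68% and 1.76% in the Ctrl libraries and between 14.3% and 16.7% in the Dox libraries, while the KLF9 segment stays between 23.9% and 25.6%.

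Ratios within a library set 5 pairs of members against each other, 4 of them the closest pairs by finger sequence. The pair of KLF5 and KLF4 was taken because its members moved in opposite directions. All ratios are given as a description, since an exact test of 3 against 3 libraries cannot give a p under 0.1. KLF7 over KLF6 was 1.43, 1.30 and 1.33 in Ctrl and 4.34, 4.06 and 4.36 in Dox. KLF5 over KLF4 was 0.511, 0.558 and 0.637 in Ctrl and 9.90, 10.2 and 9.04 in Dox, so that the more abundant of the pair changed from KLF4 to KLF5. KLF11 over KLF10 went from 0.382, 0.400 and 0.387 to 0.542, 0.590 and 0.555, and KLF9 over KLF13 from 1.49, 1.40 and 1.63 to 1.92, 2.04 and 1.90. The ratio of KLF2 to KLF4 overlapped between the groups.

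Of the other KLF genes, KLF15 and KLF16 were tested and KLF16 fell. KLF16, a further SIN3A-binding factor, was at 34.5, 34.9 and 34.4 TPM in Ctrl and at 24.9, 28.5 and 31.7 TPM in Dox (log2 fold change -0.28 ± 0.08, limma adjusted p = 0.019). The Dox libraries were all lower but spread widely, and the call was lost without Ctrl replicate 2 (adjusted p = 0.052) and without the filter on low values (0.050). KLF15, a metabolic regulator of liver and muscle, was at 7.19 to 9.25 TPM in Ctrl and 6.995 to 7.411 TPM in Dox and did not pass (limma adjusted p = 0.23). It passed as lower with median-ratio rescaling (0.043) and quantile normalization (0.013).

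KLF12, the second CtBP-binding relative of KLF3, stayed under the filter. It had 38, 30 and 31 reads in the Ctrl and 58, 110 and 75 reads in the Dox libraries, 0.340 ± 0.0329 and 0.879 ± 0.267 TPM (SD, n = 3), and every Dox library was above the Ctrl libraries. In the fit without the filter its log2 fold change was 0.48 ± 0.11 (limma adjusted p = 0.023). KLF1 and KLF8, the erythroid KLF and a further CtBP-binding factor, had at most 4 reads in any library. KLF14 had no read in Ctrl and 1, 2 and 2 reads in Dox, which is too few for a fold. The fit without the filter passed KLF14 all the same (limma adjusted p = 0.019), so passing that fit is weak support for genes this low. KLF17 was not analysed here.

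The SP factors carry the same finger domain. Of 9 SP genes 5 were tested, none rose and 3 fell, where 53.7% of all tested genes passed, 35.9% upwards and 17.8% downwards. The median log2 fold change was -0.26 against 0.10 for all tested genes. With median-ratio rescaling or quantile normalization, 4 fell, while the lower calls over all tested genes went from 2640 to 3948 and 4348. SP6, a factor of tooth and skin epithelium, was at 10.4, 12.2 and 11.8 TPM in Ctrl and at 6.20, 6.38 and 6.37 TPM in Dox (log2 fold change -0.77 ± 0.07, limma adjusted p = 8.5e-05). SP3, which can activate or repress through GC boxes, went from 28.5 ± 1.14 to 22.5 ± 0.918 TPM (SD, n = 3; log2 fold change -0.33 ± 0.05, limma adjusted p = 0.0012).

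SP4 went from 9.46 ± 0.107 to 7.77 ± 1.04 TPM (SD, n = 3; limma adjusted p = 0.042). Its call was lost without Ctrl replicate 1 (adjusted p = 0.083), 2 (0.090) or 3 (0.10), without Dox replicate 1 (0.074) or 3 (0.096), without the filter (0.095) and without the variance trend (0.050). SP1, the general GC box activator, was at 47.0 ± 2.27 and 46.6 ± 1.03 TPM and did not pass (log2 fold change -0.01, 95% confidence interval -0.12 to 0.09, limma adjusted p = 0.85). It was called lower with median-ratio rescaling (log2 fold change -0.12), quantile normalization (-0.14) and the length trend removed (-0.18). SP2 was at 19.5 ± 0.665 and 20.9 ± 1.03 TPM and did not pass (limma adjusted p = 0.17). SP5, SP7, SP8 and SP9 were under the filter, with at most 18 reads in a library.

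Among 10 corepressors and coactivators that KLF proteins bind, 5 rose, 1 fell and 4 did not pass, with a median log2 fold change of 0.16. The 6 that passed are close to the share of all tested genes, 53.7%. With either rescaling 4 rose and 4 fell, where all tested genes gave 3964 higher and 3948 lower calls (median-ratio) or 3536 and 4348 (quantile). KAT2B, the acetyltransferase PCAF, rose from 8.63 ± 0.460 to 17.3 ± 0.202 TPM (SD, n = 3; log2 fold change 0.93 ± 0.06, limma adjusted p = 8.0e-06). Of the CtBP genes, CTBP2 rose from 44.0 ± 2.01 to 65.7 ± 0.759 TPM (log2 fold change 0.57 ± 0.04), whereas its paralog CTBP1 was at 25.6 ± 0.488 and 25.3 ± 0.560 TPM and did not pass. CTBP1 was called lower with median-ratio rescaling (-0.12), quantile normalization (-0.16) and the length trend removed (-0.19). SIN3B rose from 13.5 ± 0.347 to 18.0 ± 0.726 TPM. SIN3A, the partner of KLF9, KLF10, KLF11 and KLF13, fell from 30.4 ± 0.666 to 26.6 ± 1.58 TPM (log2 fold change -0.19 ± 0.05, limma adjusted p = 0.018), a call lost without Dox replicate 1 (0.050).

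Of 8 enzymes that set KLF protein stability, 3 rose, 1 fell and 4 did not pass, with a median of 0.13, and with either rescaling 2 rose and 2 fell. The 4 that passed are close to the share of all tested genes, 53.7%. Over all tested genes, median-ratio rescaling gave 3964 higher and 3948 lower calls, and quantile normalization 3536 and 4348. BTRC, a ligase subunit for KLF4, rose from 5.44 ± 0.718 to 7.89 ± 0.417 TPM (SD, n = 3; limma adjusted p = 0.0045). BAP1, a deubiquitinase of KLF5, rose from 23.0 ± 0.352 to 29.2 ± 0.635 TPM (log2 fold change 0.33 ± 0.04, limma adjusted p = 0.00038). VHL, also a ligase for KLF4, rose from 15.5 ± 1.99 to 19.0 ± 0.421 TPM (limma adjusted p = 0.023), a call lost with median-ratio rescaling (0.065), quantile normalization (0.15), the length trend removed (0.054), without the filter (0.059), without Ctrl replicate 3 (0.054), and without Dox replicate 1 (0.065) or 3 (0.055). SIAH1, a ligase for KLF10, fell from 9.76 ± 0.785 to 7.02 ± 0.360 TPM (limma adjusted p = 0.0022). WWP1 and FBXW7, ligases for KLF5, did not pass, at 64.3 and 62.5 TPM and at 3.85 and 4.32 TPM in the mean of Ctrl and Dox, and WWP1 was called lower with median-ratio rescaling (log2 fold change -0.15), quantile normalization (-0.16) and the length trend removed (-0.18).

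**Figure D5:**
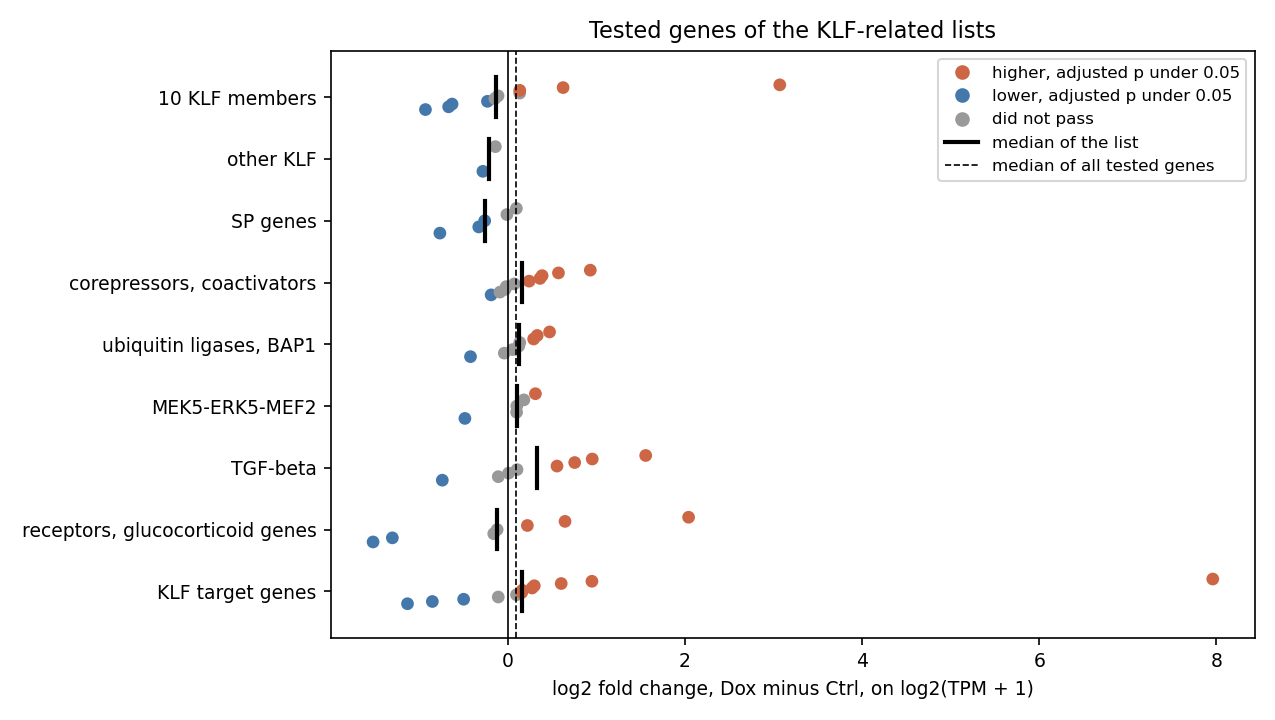
Log2 fold change (Dox minus Ctrl, on log2(TPM + 1)) of every tested gene on the KLF-related lists, one row per list, with the list median as a thick line and the median of all tested genes, 0.10, as a dashed line. The 10 KLF genes spread from -0.93 to 3.07, the SP list lies at or below the dashed line with a median of -0.26, and KRT4 stands apart at 7.96 among the target genes.

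Upstream of KLF2 and KLF4 stands the kinase cascade MEK5 to ERK5 with its MEF2 factors. Of 5 tested genes 1 rose and 1 fell, where 53.7% of all tested genes passed. With either rescaling none rose and 1 fell, where 53.3% (median-ratio) and 53.2% (quantile) of all tested genes passed. MAPK7, which encodes ERK5, fell from 22.9 ± 0.667 to 16.1 ± 1.25 TPM (SD, n = 3; log2 fold change -0.49 ± 0.06, limma adjusted p = 0.00045). MEF2B rose from 15.7 ± 1.28 to 19.8 ± 2.06 TPM (limma adjusted p = 0.019), but not with median-ratio rescaling (0.10) or quantile normalization (0.21), nor without Ctrl replicate 3 (0.061) or Dox replicate 3 (0.054).

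Upstream of KLF10 and KLF11 stands TGF-beta signalling. Of 8 tested genes, TGFB2 and TGFBR2 reached the filter in Dox only, so that a difference was a condition of their being tested. Of the other 6, 2 rose and 1 fell, with a median log2 fold change of 0.06, where 53.7% of all tested genes passed. Among the 3 with a mean of at least 5 TPM, 1 rose and none fell, where 62.7% of all genes at that level passed. TGFB2, a ligand, was at 0.120 ± 0.0250 TPM in Ctrl and 2.29 ± 0.167 TPM in Dox (SD, n = 3; 16 and 291 reads). TGFB1, another ligand, fell from 3.47 ± 0.306 to 1.68 ± 0.324 TPM (log2 fold change -0.74 ± 0.12, limma adjusted p = 0.0013). SMAD3 rose from 2.94 ± 0.602 to 6.56 ± 0.127 TPM and SMAD4 from 7.72 ± 0.412 to 13.7 ± 0.904 TPM. SMAD2 did not pass (log2 fold change 0.10) and was called lower with the length trend removed (-0.14).

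Upstream of KLF9 stand steroid and thyroid hormone receptors, listed here with glucocorticoid response genes. Of 7 tested genes 3 rose and 2 fell, where 35.9% of all tested genes rose and 17.8% fell. With either rescaling 2 rose and 4 fell, and over all tested genes median-ratio rescaling gave 3964 higher and 3948 lower calls. NR3C1, the glucocorticoid receptor, was under the filter with 12 reads over the Ctrl and 8 reads over the Dox libraries. NR3C2, the mineralocorticoid receptor, rose from 1.55 ± 0.113 to 9.52 ± 1.32 TPM (SD, n = 3; log2 fold change 2.04 ± 0.11, limma adjusted p = 4.0e-06). The hormone response genes TSC22D3 and FKBP5 fell from 230 ± 3.56 to 79.4 ± 3.95 TPM and from 144 ± 10.1 to 57.7 ± 3.22 TPM (log2 fold change -1.52 ± 0.04 and -1.30 ± 0.06), while ZBTB16 rose from 29.7 ± 2.85 to 46.9 ± 3.32 TPM. THRB, a thyroid hormone receptor, rose from 4.24 ± 0.261 to 5.10 ± 0.251 TPM (limma adjusted p = 0.046), a call that passed in 4 of 15 alternatives and was lost without any one of the libraries (adjusted p = 0.076, 0.054 and 0.15 without Ctrl replicates 1, 2 and 3, and 0.11, 0.14 and 0.056 without Dox replicates 1, 2 and 3).

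Of 20 textbook KLF target genes 12 were tested. KRT4 and ENG reached the filter in Dox only, so that a difference was a condition of their being tested. Of the other 10, 5 rose and 3 fell, with a median of 0.13, where 35.9% of all tested genes rose and 17.8% fell. With KRT4 and ENG counted, 7 rose and 3 fell, against 4 and 3 with median-ratio rescaling, 5 and 3 with quantile normalization, and 4 and 3 without Ctrl replicate 3. In the same order, the higher calls over all tested genes went from 5319 to 3964, 3536 and 4548. KRT4, a mucosal keratin gene under KLF4 control in oesophageal epithelium, had 3 reads over the Ctrl libraries and 20833 reads over the Dox libraries (257 ± 23.6 TPM, SD, n = 3). ENG, a TGF-beta coreceptor gene activated by KLF6, was at 0.433 ± 0.277 TPM in Ctrl and 1.73 ± 0.0649 TPM in Dox. CCND1, the G1 cyclin gene induced by KLF5 and repressed by KLF4, rose from 197 ± 10.9 to 299 ± 20.4 TPM. TXNIP, which binds thioredoxin, fell from 12.4 ± 0.586 to 5.14 ± 0.895 TPM (log2 fold change -1.13 ± 0.11). CDKN1A, the cell cycle inhibitor activated by KLF4 and KLF6, fell from 209 ± 14.1 to 115 ± 3.31 TPM (log2 fold change -0.85 ± 0.05, limma adjusted p = 7.4e-06). CYP1A1 fell from 37.8 ± 1.51 to 26.4 ± 0.847 TPM. These genes have many other regulators, and whether a KLF protein had a part in any of these changes was not tested.

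As a description of likeness, the genes whose log2(TPM + 1) followed KLF5 most closely over the 6 libraries were SEMA3C (Pearson r = 0.9999), NANS (0.9999) and CTB-102L5.4 (0.9998). SEMA3C, a secreted semaphorin, went from 122 ± 2.63 to 274 ± 10.9 TPM (SD, n = 3). For KLF6 they included IDH3A (0.9998) and LONRF1 (0.9994), and LONRF1 went from 28.4 ± 1.38 to 17.7 ± 0.797 TPM. Values this near 1 were common with 2 groups: 952 genes had an r above 0.99 with KLF5 and 170 with KLF6.

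Promoter windows of 300 bases, from 250 before to 50 after the RefSeq start, were found for 8 of the 10 genes (KLF3 and KLF10 not analysed here). The 2 windows shown belong to the member with the largest rise and the member with the largest fall. Capitals mark CACCC and the GC box GGGCGG, each searched on both strands. Coordinates and sequences are from RefSeq on GRCh38.p14, at chr13:73054726-73055025 on the plus strand for KLF5 and chr10:3785160-3785459 on the minus strand for KLF6, each 5′ to 3′ on the gene's strand.
KLF5: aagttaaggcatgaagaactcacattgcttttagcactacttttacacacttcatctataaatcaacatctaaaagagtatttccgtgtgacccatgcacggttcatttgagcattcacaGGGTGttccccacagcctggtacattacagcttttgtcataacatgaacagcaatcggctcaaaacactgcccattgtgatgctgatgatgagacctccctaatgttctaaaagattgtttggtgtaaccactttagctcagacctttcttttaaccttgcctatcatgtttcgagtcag
KLF6: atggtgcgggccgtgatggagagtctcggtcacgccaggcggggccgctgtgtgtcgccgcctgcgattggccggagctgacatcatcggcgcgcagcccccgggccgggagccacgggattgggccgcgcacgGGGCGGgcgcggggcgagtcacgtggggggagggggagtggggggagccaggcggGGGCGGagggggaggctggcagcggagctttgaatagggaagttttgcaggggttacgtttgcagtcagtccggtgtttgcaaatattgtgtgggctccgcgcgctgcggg
The KLF5 window holds 1 CACCC match and no GC box, with 40.7% G and C, and the KLF6 window holds 2 GC boxes and no CACCC, with 70.7% G and C. KLF5 has 2 coding transcript starts in GENCODE 29, which lie 3816 bases apart, and only 1 is in the window shown. The windows of other members missed coding starts too. For KLF4, 1 of 4 coding transcripts started inside the window, and for KLF7 2 of 8. For KLF11 it was 2 of 6, and for KLF13 1 of 3. Which start the cells used cannot be read from gene-level values. The TEAD element GGAATG, on either strand, was in none of the 8 windows and in 14.0% of all 35114 windows of this length. The AP-1 element TGANTCA (its own reverse) was also in none of the 8 and in 7.71% of all. A GC box was in 5 of the 8 (45.0% of all) and CACCC in 3 of the 8 (59.9% of all). A match is a description of letters in this window only.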

How the data were processed

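Stranded mRNA libraries of 3 Ctrl and 3 Dox samples were compared, with groups and replicate numbers from the titles. The deposited table gives 1 TPM value per gene and library, made by the authors. Per the submitters' processing notes, FastQC 0.11.2, STAR 2.5.3a, featureCounts and edgeR were used with hg19. The sources used here do not name the annotation release. Since TPM is a read number times a library constant over a length, whole reads were recovered for all 14833 tested genes (tolerance 0.01 reads, 9115 with the GENCODE 29 exon length, the others with a length found by search). Recovered reads cover at least 99.7% of the TPM of each library. Pairs of libraries within a group gave a chi-square per gene of 2.55 to 4.99, above counting error.

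Testing used limma 3.58.1 under R 4.3.3 for genes at 1 TPM or more in 3 or more libraries (mean-variance trend, two-sided, Benjamini-Hochberg) on log2(TPM + 1), which understates changes of low genes. Folds on a linear scale divide mean TPM values. The fit was tested on simulated data with 50 changed genes per fold. It recovered 18% of changes of 1.2-fold, 60% of 1.5-fold, 80% of 2-fold and 92% of 4-fold, with 3 false calls. A gene that did not pass may therefore still differ by a small fold. The members, lists and rule for named genes (all KLF and SP genes, YAP1, up to 3 called genes per list and direction with the largest change, and the 3 genes most like KLF5 and KLF6, of which 1 is not reported here) were chosen with earlier results of these data known. List members that did not pass or were not tested (CTBP1, WWP1, FBXW7, SMAD2, NR3C1) were picked with their values in view. The choices varied, singly, were the pseudocount (0.1), the filter (none, or a mean of 5 TPM or more), the scaling (median-ratio or quantile), the mitochondrially encoded genes (left out), the variance trend (dropped), a block for replicate number, and each library in turn (left out). Added after the data were seen were voom on recovered reads and removal of the trend with length (loess, span 0.3).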

Additional observations from a re-analysis of the deposited data

How the results depend on the processing

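The number of KLF genes called stayed within 1.5 times the reported 7 under each of the 16 alternatives. KLF4, KLF5, KLF6, KLF7 and KLF10 passed with the same sign in all 16, KLF13 in 15 and KLF3 in 3. KLF3 turned to -0.0025 with quantile normalization and -0.0051 with the length trend removed, and SMAD2 to -0.14 with the length trend removed. The cause was not tested. Over all genes, quantile normalization gave 3536 higher and 4348 lower calls against 5319 and 2640. On the related lists 13 genes were lower, and 21 with median-ratio rescaling, quantile normalization or the length trend removed. Under the same choices the lower calls over all tested genes went from 2640 to 3948, 4348 and 3951, so the increase was not particular to these lists. No pair of same-numbered libraries had deviations correlated above 0.1 (r = -0.0085, 0.063 and 0.0035), and not every library correlated best with its own number, so the numbers were not taken as pairs. With the replicate block 7841 genes, 6 of the 10 KLF genes (KLF3 lost, adjusted p = 0.052) and 35 related genes were called. The block also ended the call of THRB (adjusted p = 0.053).

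Depth limits KLF2, KLF12 and the SP genes under the filter, where 3 reads on 1 kb correspond to 0.335 to 0.401 TPM.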
